A study of Homo sapiens with 40 samples.

Results

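The 8 genes described here encode cell surface proteins used to mark stem and progenitor cells of the breast and other epithelia: CD24, CD44, EPCAM, PROM1, THY1, ALCAM, NT5E and LGR4. They were taken from a list of gene symbols, matched to the Ensembl identifiers of the count tables, and are 8 of 60708 genes measured in 24 RNA-seq libraries. The libraries form 8 groups of 3 biological replicates. MI-spheres are 3D cultures of MCF-10A, an immortalized, non-tumorigenic human mammary epithelial line, and MII-spheres are 3D cultures of its derivative MCF-10AneoT, which carries oncogenic HRAS. Both were grown in ultra-low attachment plates and left unstimulated (Ctrl) or given TGFβ1 at 2.5 ng/ml for 16 h. MDA-MB-231, a triple-negative breast cancer line, was grown as a monolayer with 10% serum and was either unedited (WT) or carried a CRISPR/Cas9 knockout of SLUG (gene SNAI2). The edit was made with a guide against exon 1, and the cells were expanded from single-cell colonies, so a difference between these groups may also be a difference between a colony and its parent population. MDA-MB-231 cells were also transfected with a scrambled siRNA (Csi) or with siRNAs against SMAD2, SMAD3 and SMAD4 (siSMAD2/3/4). None of the MDA-MB-231 groups is labelled as stimulated. The 6 siRNA libraries carry another batch label than the 18 others and were not tested against them. Where levels of all 24 libraries are shown together, a difference between these 6 and the others may also be a batch difference.

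Breast cells with high CD44 and low CD24 on their surface have been described as enriched for tumor-initiating cells, and EPCAM is used with CD49f to separate luminal from basal mammary cells. TGFβ signals through the receptor-activated SMAD2 and SMAD3, which bind SMAD4, and it can drive epithelial cells toward a mesenchymal state, in which SLUG acts as a transcriptional repressor. CD24, THY1 and NT5E are held in the membrane by a glycosylphosphatidylinositol (GPI) anchor, PROM1 and LGR4 span it several times, and CD44, EPCAM and ALCAM span it once. RNA levels do not give the amount of protein at the surface.

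All values are levels of RNA summed over a gene's annotated exons, so splice forms of CD44 were not separated. Levels are in CPM, the count divided by the library's total, scaled by TMM over all 24 libraries together. Fold-changes come from separate fits of each comparison, scaled on its own libraries, and differ slightly from ratios of the CPM printed here. A gene was called where the adjusted p of edgeR's quasi-likelihood test was under 0.05. Whether libraries of compared groups overlapped describes their values and is no test, and the share of all genes without overlap is not given. Total counts ran from 14124688 to 38406952 per library, and 0 counts allow a level of up to 0.079 to 0.204 CPM, the level of 3 counts. WT replicate 2 stood apart: its log2 CPM correlated with the other WT libraries across genes with r of 0.952 and 0.957, where pairs of every other group gave 0.984 to 0.994. Mitochondrial genes took 2.4% of its counts, against 0.81% and 0.66% in WT replicates 1 and 3. Members' fold-changes against WT are therefore given with and without it. In bulk samples, fewer cells carrying a marker and less RNA per cell cannot be told apart.

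The groups carried the genes their labels name, with an exception. HRAS stood at 220 ± 4.10 CPM (SD, n = 3) in unstimulated MII-spheres against 40.7 ± 1.01 in MI-spheres. Of 6 TGFβ targets, 5 rose in MI- and 3 in MII-spheres, and TGFBI, a secreted matrix protein induced by TGFβ, rose by 1.39 ± 0.05 (log2, SE) in MI- and 0.84 ± 0.04 in MII-spheres. SMAD2, SMAD3 and SMAD4 RNA fell by 1.92, 0.69 and 1.73 on the log2 scale in siSMAD2/3/4. SNAI2 RNA, in contrast, was higher in the libraries labelled SLUG KO, at 57.7 to 64.3 CPM against 20.9 to 33.7 CPM in WT (log2 fold-change 1.11 ± 0.22, adjusted p = 0.0443, and 0.94 ± 0.10, adjusted p = 6.34e-07, without WT replicate 2). Counts summed over exons do not show whether an edited transcript encodes protein, so they give no check of this label. The study's methods name droplet digital PCR and immunoblotting as its own check of the clones. Keratin KRT5, a basal mammary marker, had 0 counts in WT and SLUG KO, and E-cadherin (CDH1) stood at 1.23 ± 0.43 CPM in WT against 527 ± 5.51 CPM in unstimulated MI-spheres. Of 5 leukocyte markers, PTPRC, CD3E and CD68 were at or near 0 in the spheres, while LYZ stood at 35.7 ± 0.80 CPM in unstimulated MII-spheres. The endothelial marker PECAM1 stood at 104.6 ± 1.71 CPM there, against 9.79 CPM in unstimulated MI-spheres. The other endothelial markers did not go with it. In unstimulated MII-spheres VWF and KDR stood at 0.185 and 0.277 CPM, and CDH5 at 10.75 CPM against 22.2 CPM in unstimulated MI-spheres. The spheres were grown from epithelial lines alone, and the source of LYZ and PECAM1 RNA was not tested. Summed over 6 fibroblast markers, levels ran from 4.26 to 27.3 CPM in spheres and from 49.8 to 124 CPM in MDA-MB-231 cells.

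The members lie on 5 chromosomes (GRCh38). CD24 (ENSG00000272398.6) is at chr6:106969831-106975627 on the minus strand, and NT5E (ENSG00000135318.12) at chr6:85449584-85495791 on the plus strand. CD44 (ENSG00000026508.20) is at chr11:35138882-35232402 on the plus strand, LGR4 (ENSG00000205213.14) at chr11:27365961-27472790 and THY1 (ENSG00000154096.14) at chr11:119415476-119424985, both on the minus strand. EPCAM (ENSG00000119888.11) is at chr2:47345158-47387601 (plus), PROM1 (ENSG00000007062.12) at chr4:15963076-16084378 (minus) and ALCAM (ENSG00000170017.12) at chr3:105366909-105576900 (plus). The counting ignored strand, but exons shared with antisense genes were short, at 84 bases for CD44 and 13 bases for LGR4. THY1 shares 632 bases with THY1-AS1, which had 0 counts in every library. CD24 has processed pseudogenes, and the 3 counted here held at most 8 counts in any library. Fragments that match CD24 and a pseudogene equally well fall under the mapping quality minimum and may be missing from its count.

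RefSeq gives 11 start sites for 6 of the members in its GRCh38.p14 promoter table. The 250 bases before the start are shown for CD24, the member with the largest change in the libraries labelled SLUG KO, and for ALCAM, which holds the E-box sequence bound by SLUG and related factors. Capitals mark the E-box CACCTG and the GC box GGGCGG, searched on both strands with 2 further motifs, the SMAD box CAGAC and the AP-1 site TGACTCA. The windows are chr6:106975628-106975877 (minus strand) and chr3:105366659-105366908 (plus strand).
CD24: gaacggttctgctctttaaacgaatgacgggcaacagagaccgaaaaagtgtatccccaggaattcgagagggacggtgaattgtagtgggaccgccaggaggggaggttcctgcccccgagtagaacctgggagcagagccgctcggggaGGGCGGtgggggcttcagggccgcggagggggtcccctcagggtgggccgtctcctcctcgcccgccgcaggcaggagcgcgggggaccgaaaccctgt
ALCAM: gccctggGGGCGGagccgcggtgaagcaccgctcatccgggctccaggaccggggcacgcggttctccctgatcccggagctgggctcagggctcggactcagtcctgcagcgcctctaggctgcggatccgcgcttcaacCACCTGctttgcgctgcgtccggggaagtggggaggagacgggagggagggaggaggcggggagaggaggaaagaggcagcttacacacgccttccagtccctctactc
The CD24 window holds 1 GC box and none of the other motifs, and the ALCAM window holds 1 GC box and 1 E-box. Over all 35116 promoters of the table, 17.5% hold CACCTG, 42.6% GGGCGG and 4.2% TGACTCA in the same window, and CAGAC is held by 13345 promoters. The E-box is absent from the windows of CD44, NT5E and LGR4 and from the second CD24 start, and present at the third CD24 start and at 3 of the 4 PROM1 starts. A match is no evidence of binding, and gene counts do not show which start was used.

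The 8 members covered a wide range, which the plot of levels by library shows. CD24, a small mucin-like adhesion protein, ran from 0.272 CPM in SLUG KO to 1865 CPM in stimulated MI-spheres. CD44, the hyaluronan receptor, ran from 152 CPM in unstimulated MII-spheres to 804 CPM in Csi, and ALCAM, an adhesion protein of the immunoglobulin family, from 208 to 700 CPM. PROM1, the pentaspan protein CD133, was at or under 3 counts in 16 of 24 libraries, and THY1, the CD90 antigen of fibroblasts and neurons, in 22 of 24. The highest THY1 count in any library was 11, in stimulated MI-spheres, so THY1 was near the limit of detection in all groups. Per length of exon, CD24 was the most abundant member in unstimulated MI-spheres, at 422 CPM per kb, followed by ALCAM at 37.1 and EPCAM at 25.5. In WT the order per length was different, with NT5E at 97.9 CPM per kb, ALCAM at 62.0, CD44 at 56.1 and CD24 at 3.03. In WT replicate 2 alone, CD44 exceeded ALCAM, at 66.6 against 34.8 CPM per kb.

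In MI-spheres, TGFβ raised EPCAM, LGR4 and CD44 most, raised CD24 less, and lowered NT5E and ALCAM slightly. All 6 members that passed the low-count filter were called, 4 higher and 2 lower, where 56% of all 16863 genes tested were called. Their median log2 fold-change was 0.57, against -0.02 over all genes tested. PROM1 and THY1 were not tested. The share of members called is thus to be read against a response that covered most genes.

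CD44 stood at 176, 173 and 173 CPM in unstimulated and at 349, 324 and 314 CPM in stimulated MI-spheres. The groups did not overlap, and the rise was 0.84 ± 0.05 on the log2 scale (95% interval 0.73 to 0.95, adjusted p = 4.04e-12). EPCAM, an epithelial adhesion and signaling protein, stood at 66.5, 59.0 and 60.7 CPM before and 137, 127 and 152 CPM after stimulation. It rose 2.10-fold (log2 1.07 ± 0.06, adjusted p = 6.91e-13), although it is a marker of the epithelial state. CDH1, another epithelial marker, stood at 527 ± 5.51 CPM without and 545 ± 11.8 CPM with TGFβ (log2 -0.03 ± 0.05, adjusted p = 0.581), and 3 of 4 junction genes fell. The 6 basal mammary markers rose together with these members in both sphere types, from a summed 1912 to 1984 CPM to 3752 to 4078 CPM in MI-spheres and from 611 to 621 CPM to 2159 to 2261 CPM in MII-spheres. Their part in the members' changes was not tested.

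LGR4, the receptor for R-spondins that potentiates Wnt signaling, stood at 32.6, 32.9 and 35.9 CPM in unstimulated and at 70.3, 66.1 and 76.5 CPM in stimulated MI-spheres, a rise of 0.99 ± 0.07 (log2, adjusted p = 1.14e-11). CD24 moved less, from 1276, 1309 and 1331 CPM to 1645, 1614 and 1865 CPM, which the fit gave as 0.31 ± 0.06 (log2, adjusted p = 5.45e-05). NT5E, the ecto-5'-nucleotidase CD73 that forms adenosine from AMP outside the cell, fell. Its libraries stood at 24.8, 24.02 and 29.95 CPM before and 21.3, 19.2 and 24.3 CPM after stimulation, so the groups overlapped, and the change was -0.36 ± 0.09 (log2, adjusted p = 0.00218). ALCAM also overlapped, at 263 to 270 CPM without and 235 to 273 CPM with TGFβ. Its change of -0.15 ± 0.05 (log2, adjusted p = 0.0173) was not called by DESeq2 (adjusted p = 0.144), without the low-count filter (0.054), or without MI Ctrl replicate 3 (0.0675), MI TGFβ replicate 1 (0.0905) or MI TGFβ replicate 2 (0.0919). PROM1 was counted 5, 3 and 3 times without and 0, 0 and 4 times with TGFβ. THY1 was counted 1, 0 and 0 times without and 3, 11 and 4 times with TGFβ, the only group in which every library held at least 3 THY1 counts. THY1 could be tested there only without the low-count filter (adjusted p = 0.0194).

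In MII-spheres, 6 of the 7 members tested rose with TGFβ and ALCAM fell, where 57.7% of 16396 genes were called. The median over the members was 0.63 (log2), against -0.02 over all genes tested. CD24 showed the largest rise of the abundant members, from 978, 915 and 952 CPM to 1687, 1699 and 1634 CPM. Stimulated MII-spheres thus reached the range of stimulated MI-spheres. The fit gave 0.78 ± 0.03 (log2, adjusted p = 3.77e-33).

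CD44 stood at 152, 154 and 156 CPM without and 212, 224 and 213 CPM with TGFβ, a rise of 0.45 ± 0.04 (log2, adjusted p = 7.14e-17). EPCAM stood at 196, 184 and 180 CPM without and at 300, 289 and 300 CPM with TGFβ, the highest level of EPCAM in the study (log2 0.63 ± 0.04, adjusted p = 1.61e-24). LGR4 rose from 40.5, 38.8 and 39.7 CPM to 67.0, 67.6 and 64.7 CPM (log2 0.71 ± 0.06, adjusted p = 6.32e-18). In none of these genes did the stimulated and unstimulated libraries overlap.

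PROM1 was detected well only in MII-spheres, with 32, 63 and 39 counts without TGFβ (2.12, 2.11 and 2.17 CPM) and 92, 85 and 73 counts with it (6.22, 5.66 and 4.96 CPM). It rose 2.57-fold (log2 1.36 ± 0.19, adjusted p = 3.74e-09). NT5E rose as well, from 47.3, 46.2 and 49.6 CPM to 66.8, 70.0 and 74.3 CPM (log2 0.53 ± 0.06, adjusted p = 6.83e-13), the opposite direction to MI-spheres. ALCAM stood at 287, 267 and 276 CPM without and 254, 258 and 258 CPM with TGFβ (log2 -0.14 ± 0.04, adjusted p = 6.29e-04).

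**Figure D1:**
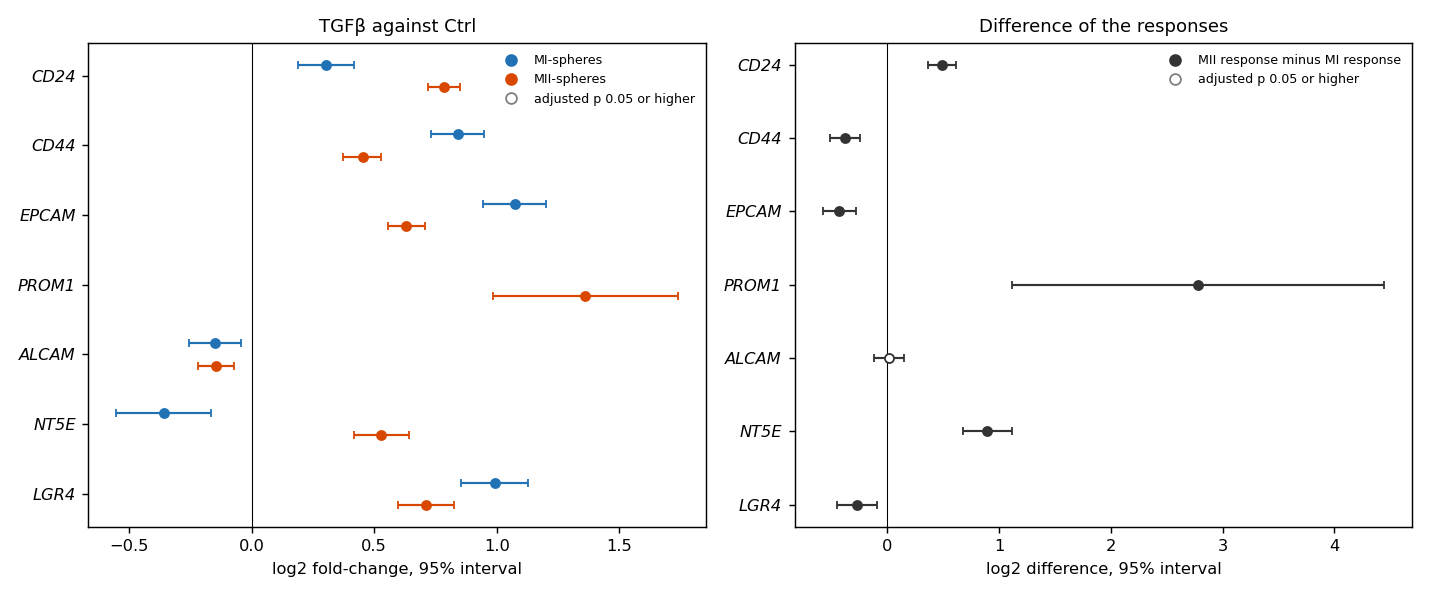
Left, log2 fold-change of each tested member with TGFβ against Ctrl in MI- and MII-spheres (3 against 3 libraries each); right, MII response minus MI response from the fit of 12 libraries; bars are 95% intervals and open symbols have an adjusted p of 0.05 or higher. NT5E lies on opposite sides of 0 in the 2 sphere types, and ALCAM does not differ detectably.

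The responses of the 2 sphere types were compared in a fit of all 12 sphere libraries, which tests the difference itself. Of 7 members tested, 6 responded differently, where 22.5% of 18591 genes did. CD24 (log2 difference 0.49 ± 0.06, adjusted p = 1.98e-08), NT5E (0.90 ± 0.11, adjusted p = 2.68e-09) and PROM1 (2.78 ± 0.83, adjusted p = 0.00972) were more positive in MII-spheres. CD44 (-0.38 ± 0.07, adjusted p = 9.49e-06), EPCAM (-0.43 ± 0.07, adjusted p = 6.17e-06) and LGR4 (-0.27 ± 0.09, adjusted p = 0.0187) rose less in MII- than in MI-spheres. The PROM1 difference rests on few counts in MI-spheres, ranged from 2.18 to 6.13 over the alternatives and was not called without MI Ctrl replicate 1 (adjusted p = 0.0564), and that of LGR4 was not called without the low-count filter (adjusted p = 0.0763). For ALCAM the difference was 0.02, with a 95% interval of -0.12 to 0.15, and its sign changed when single libraries were left out.

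The lines themselves also differed before stimulation. Of 7 members tested, 4 were higher and 2 lower in unstimulated MII- than MI-spheres, where 64.4% of 17862 genes were called. EPCAM was 3.02-fold higher in MII-spheres (log2 1.59 ± 0.04, adjusted p = 3.58e-50), at 180 to 196 CPM against 59.0 to 66.5 CPM. NT5E was 1.84-fold higher (0.88 ± 0.07, adjusted p = 3.15e-21) and LGR4 1.18-fold higher (0.24 ± 0.06, adjusted p = 3.60e-04). PROM1 was 12.5-fold higher (3.64 ± 0.40, adjusted p = 1.61e-13), on 134 counts in MII- against 11 counts in MI-spheres. CD24 was lower, at 915 to 978 CPM against 1276 to 1331 CPM (-0.45 ± 0.03, adjusted p = 2.69e-21), and CD44 slightly lower (-0.16 ± 0.04, adjusted p = 9.93e-05). ALCAM did not pass the test (0.07 ± 0.04, adjusted p = 0.099, 95% interval -0.01 to 0.14), except with at least 10 counts in every library (adjusted p = 0.0233) or without MII Ctrl replicate 2 (0.0197). Cell type markers differed along with these members: 5 of 6 luminal markers were higher and 5 of 6 basal markers lower in MII-spheres, and their part in the differences was not tested.

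After TGFβ, 4 of 7 members differed between the lines, where 62.7% of 15878 genes did. These libraries are also those of the responses above. EPCAM (log2 1.17 ± 0.05, adjusted p = 6.81e-18) and NT5E (1.78 ± 0.08, adjusted p = 5.64e-18) were higher in MII-spheres, and CD44 was lower (-0.53 ± 0.05, adjusted p = 5.47e-10). PROM1 was higher on 250 counts against 4, so that its fitted difference of 6.42 ± 0.43 (log2, adjusted p = 1.86e-13) depends on the handling of low counts and ranged from 5.85 to 9.60 over the alternatives. CD24 (0.05, 95% interval -0.05 to 0.14) and LGR4 (-0.02, -0.14 to 0.10) did not pass the test, although both differed before stimulation. All 6 luminal markers and 3 of 4 junction markers were also higher in stimulated MII- than MI-spheres, and their part in the members' differences was not tested. Without MI TGFβ replicate 3, CD24 (0.09, adjusted p = 0.0261) and ALCAM (0.12, adjusted p = 0.00839) were called.

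MDA-MB-231 cells had a different surface marker profile from MI-spheres. In WT against unstimulated MI-spheres, 3 members were higher and 2 lower of 6 tested, where 53.3% of 18732 genes were called. Line and culture form (monolayer or spheres) cannot be told apart here, and all 6 basal and all 4 junction markers tested were lower in WT. The junction markers summed to 132 to 165 CPM in WT against 1648 to 1696 CPM, and 4 of 5 mesenchymal markers were higher, at a summed 1623 to 1688 CPM against 58.7 to 63.6 CPM. Their part in the members' differences was not tested. NT5E stood at 471, 333 and 528 CPM in WT against 24.02 to 29.95 CPM in MI-spheres, a 16.9-fold difference (log2 4.08 ± 0.25, adjusted p = 2.32e-05). CD44 stood at 529, 665 and 486 CPM against 173 to 176 CPM (1.68 ± 0.19, adjusted p = 2.88e-04). LGR4 stood at 120.5, 56.5 and 122 CPM against 32.6 to 35.9 CPM (1.56 ± 0.31, adjusted p = 0.0047).

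CD24 was lower, at 12.1, 4.97 and 11.1 CPM against 1276 to 1331 CPM (log2 -7.12 ± 0.42, adjusted p = 1.94e-05). EPCAM stood at 16.9, 10.9 and 21.4 CPM against 59.0 to 66.5 CPM (-1.93 ± 0.27, adjusted p = 8.68e-04). WT replicate 2 was the lowest WT library for NT5E, LGR4, CD24 and EPCAM and the highest for CD44. Without it the differences were 4.22 for NT5E, 1.52 for CD44, 1.81 for LGR4, -6.85 for CD24 and -1.74 for EPCAM, and ALCAM, which stood at 508, 250 and 577 CPM in WT, was also called (0.99 ± 0.07, adjusted p = 3.34e-09, against 0.74 ± 0.31, adjusted p = 0.0838 with it). Over all genes, 74.9% were called without it.

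The ratio of CD44 to CD24, which does not depend on the scaling of libraries, gives this contrast in a single value. Per length of exon, CD44 was below CD24 in every sphere library, by a mean log2 ratio of -4.60 ± 0.04 (SD, n = 3) in unstimulated MI-, -4.06 ± 0.17 in stimulated MI-, -4.31 ± 0.06 in unstimulated MII- and -4.64 ± 0.04 in stimulated MII-spheres. With TGFβ the ratio was thus higher in MI- and lower in MII-spheres, and the 3 stimulated and 3 unstimulated libraries did not overlap in either type. In MDA-MB-231 cells CD44 exceeded CD24, with mean log2 ratios of 4.30 ± 0.93 in WT, 8.53 ± 0.47 in SLUG KO, 3.33 ± 0.04 in Csi and 2.58 ± 0.03 in siSMAD2/3/4. WT replicate 2 stood at 5.37 and the other two WT libraries at 3.76. CD44 over EPCAM followed the same split, from -2.54 to -0.49 in sphere libraries and from 2.32 to 3.89 in MDA-MB-231 libraries. These ratios compare RNA of whole cultures and do not give the share of cells with a given phenotype.

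**Figure D2:**
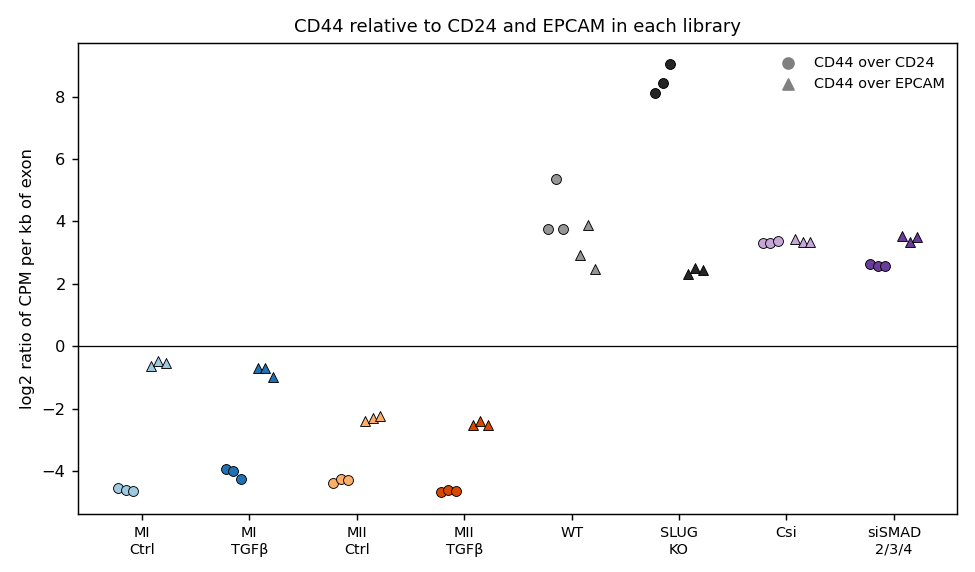
Log2 ratio of CD44 to CD24 (circles) and of CD44 to EPCAM (triangles) in CPM per kb of exon for each library of the 8 groups, with a line at equal levels. All 12 sphere libraries lie below 0 and all 12 MDA-MB-231 libraries above it.

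In the libraries labelled SLUG KO, CD24 was the only member called of 6 tested, and it was lower. Over all 17428 genes, 3.14% were called, and without WT replicate 2 the share was 31.4% of 17909. CD24 was counted 12, 9 and 6 times in SLUG KO (0.477, 0.411 and 0.272 CPM) and 322, 120 and 276 times in WT. The groups did not overlap, and the fitted difference was -4.60 ± 0.45 (log2, 95% interval -5.67 to -3.54, adjusted p = 0.00432), or 24.3-fold. Without WT replicate 2 it was -4.89 ± 0.23 (adjusted p = 2.00e-11). A filter of at least 10 counts in every library left CD24 untested. Since SNAI2 RNA is not lower in these libraries, the direction is that between the labels.

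The differences of CD44, ALCAM, NT5E, EPCAM and LGR4 did not pass the test. CD44 stood at 428, 456 and 462 CPM in SLUG KO (log2 -0.35 ± 0.19, adjusted p = 0.37, 95% interval -0.79 to 0.10). ALCAM stood at 655, 666 and 700 CPM, its highest level in the study (0.58 ± 0.31, adjusted p = 0.361, 95% interval -0.15 to 1.30). Without WT replicate 2, ALCAM was called at a smaller size (0.30 ± 0.09, adjusted p = 0.0179). NT5E stood at 591, 555 and 599 CPM (0.36 ± 0.21, adjusted p = 0.393), EPCAM at 19.5 to 20.8 CPM (0.29 ± 0.26, adjusted p = 0.575) and LGR4 at 118.9 to 131.1 CPM (0.30 ± 0.30, adjusted p = 0.625). When all 18 libraries of the batch shared a fit, CD44 (adjusted p = 0.0344) and ALCAM (0.0407) were called beside CD24. Without WT replicate 2, CD44 was at -0.19, EPCAM at 0.08, NT5E at 0.21 and LGR4 at 0.03 (log2). A p that missed the threshold here does not show that a member was unchanged. The 5 mesenchymal markers summed to 886 to 973 CPM in SLUG KO and 1623 to 1688 CPM in WT, and fibronectin (FN1) was the one called. Its part in the members' differences was not tested.

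With siSMAD2/3/4, all 6 members tested were called, 2 higher and 4 lower, where 36.1% of 17696 genes were called. NT5E stood at 463, 513 and 468 CPM in Csi and at 217, 215 and 220 CPM in siSMAD2/3/4. It fell 2.22-fold (log2 -1.15 ± 0.04, 95% interval -1.23 to -1.07, adjusted p = 1.76e-24). ALCAM fell from 273, 295 and 295 CPM to 208, 210 and 224 CPM (-0.43 ± 0.04, adjusted p = 1.70e-11).

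CD44 stood at 770, 804 and 792 CPM in Csi and 669, 646 and 671 CPM in siSMAD2/3/4 (log2 -0.26 ± 0.04, adjusted p = 1.64e-07). EPCAM fell from 17.3, 19.2 and 19.0 CPM to 14.2, 15.4 and 14.4 CPM (-0.35 ± 0.08, adjusted p = 5.15e-04). CD24 rose from 24.1, 25.2 and 23.8 CPM to 33.8, 34.0 and 35.0 CPM (0.49 ± 0.06, adjusted p = 5.14e-08). In each of these genes the Csi and siSMAD2/3/4 libraries did not overlap. LGR4 was higher by 0.12 ± 0.04 (log2, adjusted p = 0.0233), which was not called without the low-count filter (adjusted p = 0.0527), without Csi replicate 3 (0.0699) or without siSMAD2/3/4 replicate 3 (0.122). Of the siSMAD2/3/4 libraries, 1 shared the flow cell of the 3 Csi libraries, as the deposited tables are named, and with flow cell as a term NT5E was at -1.12 (adjusted p = 3.26e-18) and all 6 members were called. Of 5 luminal markers tested, 4 were higher in siSMAD2/3/4, and their part in the members' changes was not tested.

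**Figure D3:**
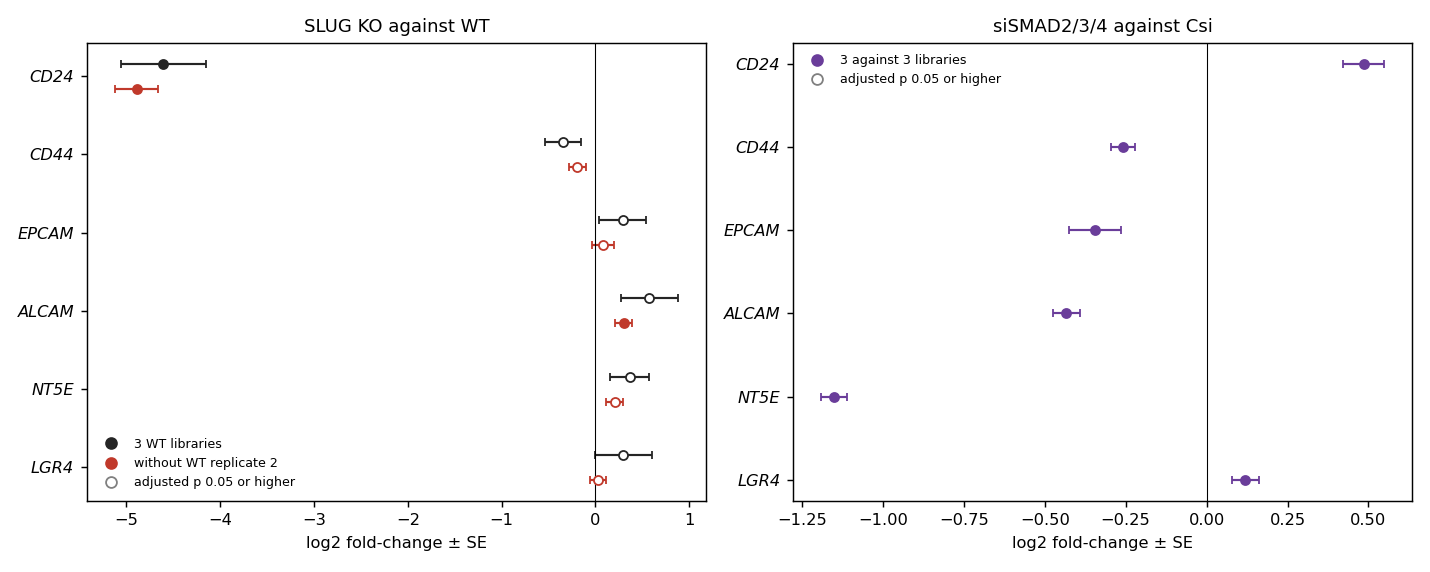
Log2 fold-change ± SE of the 6 tested members in MDA-MB-231 cells, left for SLUG KO against WT with 3 WT libraries and without WT replicate 2, right for siSMAD2/3/4 against Csi; open symbols have an adjusted p of 0.05 or higher. CD24 is the only member called on the left with all libraries, and NT5E has the largest change on the right.

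Genes that work with the members moved in both directions, and a few, such as ITGB3 and TSPAN8, stand in more than 1 of the lists that follow. Of all genes tested, 56% were called in the MI and 57.7% in the MII response, and 22.5% differed between the responses. In MDA-MB-231 cells, 36.1% were called with siSMAD2/3/4 and 3.14% in SLUG KO. The counts of called genes in the lists are to be read against these shares. Of 28 other surface markers of stem and progenitor cells, 20 were tested for the TGFβ response in either sphere type. In MI-spheres 10 rose and 6 fell, with a median of 0.14 (log2) against -0.02 over all genes, and in MII-spheres 10 rose and 4 fell, with a median of 0.14. PROCR, the protein C receptor that marks a mammary stem cell population, rose in MI-spheres from 8.95 to 31.98 CPM (log2 1.76 ± 0.10) and stood at 0.266 CPM in unstimulated MII-spheres. BMPR1B, a BMP receptor, fell by 1.11 on the log2 scale in MI-spheres and rose by 0.18 in MII-spheres, and the responses differed by 1.29 ± 0.11 (adjusted p = 4.50e-14). CD55, a complement regulator, fell by 1.07 in MI- and 0.29 in MII-spheres. ITGB3, the integrin chain CD61, rose by 0.61 ± 0.21 in MI-spheres and fell by 1.00 in MII-spheres, a difference of -1.60 ± 0.17 (adjusted p = 5.94e-11). Between the unstimulated lines, ITGB3 was 5.95 ± 0.08 (log2) higher in MII-spheres, at 124 against 2.00 CPM. In the libraries labelled SLUG KO, 2 of 25 tested markers were higher and 3 lower, among them CXCR4, a chemokine receptor, at 5.37 against 20.96 CPM in WT (log2 -1.99 ± 0.32, adjusted p = 0.0219, and -2.24 ± 0.15 without WT replicate 2). Without that library 13 were higher and 6 lower, where 31.4% of all genes were called.

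Among partners of CD44, 12 of 15 were tested in the spheres. Moesin (MSN), which links CD44 to actin, rose in MI-spheres by 1.62 ± 0.06 and in MII-spheres by 1.41 ± 0.05 (log2), and HAS3, a hyaluronan synthase, fell in both, by 0.84 and 1.21. In all, 5 rose and 4 fell in MI-spheres, and 7 rose and 2 fell in MII-spheres. The splicing factor ESRP1, which favors epithelial splice forms of CD44, stood at 200 CPM in unstimulated MI-spheres and at 0.0268 CPM in WT.

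Of 11 partners of EPCAM, 6 fell and 2 rose in MI-spheres, where EPCAM rose, with a median of -0.22 (log2). Claudin CLDN1 fell by 0.66. In MII-spheres 5 rose and 1 fell, and CLDN1 rose by 0.62 ± 0.05. The responses differed for 7 of the 11 genes, with CLDN1 1.29 ± 0.08 more positive in MII-spheres (adjusted p = 8.48e-20). In the libraries labelled SLUG KO, the protease matriptase (ST14) was higher by 2.79 ± 0.37 (log2, adjusted p = 0.0117) and CLDN1 by 2.34 ± 0.21 (adjusted p = 0.00281). Of the 11 EPCAM partners 3 were called there, all higher, while EPCAM was not called. Without WT replicate 2 the ST14 and CLDN1 differences were 3.34 and 2.31, and 6 partners were higher and 1 lower, where 31.4% of all genes were called.

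In the LGR4 and R-spondin pathway, 7 of 13 genes were tested in MI-spheres, of which 3 rose and 2 fell, and 6 in MII-spheres, of which 2 rose and 1 fell. ZNRF3, the ubiquitin ligase that R-spondin and LGR4 inactivate, rose by 0.33 ± 0.10 in MI- and 0.42 ± 0.13 in MII-spheres (log2). The Wnt co-receptor LRP5 fell by 0.34 and 0.40. AXIN2, a Wnt target gene, fell by 1.33 ± 0.31 in MI-spheres (adjusted p = 8.60e-04), on 0.690 against 1.64 CPM, while NKD1, another Wnt target gene, rose by 1.03 ± 0.24 (adjusted p = 7.25e-04), from 1.43 to 3.09 CPM. The ZNRF3 responses of the sphere types differed by 0.10 ± 0.16 (log2, adjusted p = 0.736).

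In the adenosine pathway of NT5E, 4 of 9 tested genes rose and 3 fell in MI-spheres, and 2 of 10 rose and 4 fell in MII-spheres. Adenosine deaminase (ADA), which removes adenosine, rose in MI-spheres from 26.1 to 58.5 CPM (log2 1.08 ± 0.07), and its response was 1.21 ± 0.12 (log2) lower in MII-spheres. The adenosine receptor ADORA2B was higher in unstimulated MII- than MI-spheres, at 69.0 against 35.7 CPM (0.97 ± 0.06). With siSMAD2/3/4, 2 of 11 tested genes of the list rose and 3 fell, and the adenosine transporter SLC29A1 fell by 0.20 on the log2 scale, from 208 to 181 CPM. The changes in this list were smaller than that of NT5E there, the largest being 0.75 ± 0.13 for ADORA1.

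Of 29 genes of GPI anchor synthesis, 28 were tested in the spheres. In MI-spheres 12 rose and 2 fell, where 56% of all genes were called. In MII-spheres 12 rose and 1 fell, where 57.7% were called. The medians were 0.16 and 0.15 (log2), against -0.02 over all genes. The rises were small, the largest being 0.41 ± 0.12 for PIGF in MI- and 0.49 ± 0.06 for PIGK in MII-spheres, and 2 genes differed in each direction between the responses. With siSMAD2/3/4, 4 rose and 7 fell, PIGU by 0.62 and PIGK by 0.54, where 36.1% of all genes were called. In SLUG KO the median over 27 genes was 0.20 (log2) against -0.05 over all genes, and 9 were called higher when WT replicate 2 was left out, a share near the 31.4% of all genes called then. Among the binding partners of ALCAM, THY1, CD24 and PROM1, the integrin chain ITGAV rose by 0.79 ± 0.05 in MI- and 0.65 ± 0.04 in MII-spheres, and 4 of 8 tested genes rose and 2 fell in each sphere type. TSPAN8, a tetraspanin, had 0 counts in all SLUG KO libraries and 0.994 to 3.66 CPM in WT. The WT mean of 2.53 CPM was at least 18.5-fold the floor of 3 counts in the SLUG KO libraries (24.1-fold without WT replicate 2). Single WT libraries with less TSPAN8 lay closer to that floor.

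Across the 24 libraries, some genes followed the members closely. With Pearson's r of log2 CPM over 14804 genes as the measure of likeness, CD24 was most like PTGFRN (0.99), SLC44A5 (0.99) and DZIP1 (0.99). EPCAM was most like LRIG3 (0.99), KRT6B (0.99) and SPAG17 (0.99), and NT5E like OSBPL3 (0.99), MBP (0.99) and SLAIN1 (0.98). CD44 was most like ACLY (0.99), SEMA4F (0.98) and LOXL2 (0.98), LGR4 like FKBP7 (0.98), FAM168B (0.98) and DEGS1 (0.97). PROM1 was most like GABRA2 (0.98), CTSV (0.97) and SLC12A2 (0.97), and ALCAM like SPAG9 (0.97), NPAT (0.95) and CDV3 (0.94). These libraries form 8 groups of 3 from 3 cell lines, so r mostly describes the order of the groups.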

How the data were processed

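RNA was sequenced from 24 cultures with a stranded total RNA kit after ribosomal RNA removal. After trimming (Trimmomatic) and 2-pass STAR alignment to GRCh38, the authors deposited raw counts of read pairs per gene, made with featureCounts 2.0.0 on GENCODE 38 exons with a mapping quality of at least 30, both ends mapped and strand ignored. Symbols came from GENCODE 44 and covered 60463 of 60708 genes (99.6%). The 16 ATAC-seq samples of the series were not analysed here.

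Counts were tested with edgeR 4.0.16 in R 4.3.3: filterByExpr, TMM and the robust quasi-likelihood test, fitted on the libraries of each comparison, p adjusted (Benjamini-Hochberg) across every gene tested, threshold 0.05. The difference of the TGFβ responses was fitted on 12 libraries. Standard errors were taken from the fold-change and its F statistic. The ± after CPM is the SD of 3 libraries, and bars in figures are as their captions state. The labels call the libraries biological replicates, and p-values set the difference between groups against the spread between replicates. Total counts of 14124688 to 38406952 per library set the floor of 3 counts, which covers counting error only. No pair of replicates agreed within sampling noise, the lowest chi-square per gene being 1.88. Fits were tested on simulated data with known changes.

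The members and all gene and marker lists were chosen with earlier results of these data known. All 8 members were named. For each list, at most 3 called genes in each direction with a mean of at least 1 CPM were named, along with the perturbed genes and TGFβ targets, and for each member the 3 protein-coding genes most alike. Marker genes named beside a result (CDH1, KRT5, LYZ and the endothelial markers) and the ZNRF3 difference between responses were chosen after their values were seen. Alternatives were DESeq2 1.42.0, edgeR on DESeq2's size factors, a fit with no filter, a minimum of 10 counts per library, a replicate block, pooled fits, flow cell as a term and leaving out each library. Deviations of libraries with the same replicate number correlated with r of -0.123 to 0.051, so the numbers did not pair the samples. A few list genes are not reported here by name.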

Additional observations from a re-analysis of the deposited data

Results flagged for a closer look

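These members are listed because their TGFβ response differed between MII- and MI-spheres when the difference itself was tested by edgeR on 12 libraries. The response of MII- minus MI-spheres (log2) was 0.49 for CD24, 0.90 for NT5E and 2.78 for PROM1, which were more positive in MII-spheres. It was -0.38 for CD44, -0.43 for EPCAM and -0.27 for LGR4, which rose in both types and less in MII-spheres. NT5E was the member that fell in MI- and rose in MII-spheres.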

How the results depend on the processing

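Of the members' fold-changes under the alternatives, 626 kept their direction and their side of the threshold, 10 changed sign, 9 gained a call and 10 lost it. The sign changes concern differences near 0. Over all alternatives, ALCAM between the TGFβ responses ran from -0.074 to 0.044 (log2), and LGR4 between the stimulated lines from -0.069 to 0.015. The number of members called in SLUG KO against WT was 0 under the minimum of 10 counts per library, which left CD24 untested, 3 with all 18 libraries of the batch in a fit, and 1 to 2 when a library was left out, the 2 without WT replicate 2. Over all genes, SLUG KO against WT gave 548 calls, and 1204 by DESeq2, 240 with at least 10 counts, 4133 in the 18-library fit and 123 to 5621 without a library, the 5621 without WT replicate 2. WT against MI-spheres gave 6409 calls with at least 10 counts, where fewer genes were tested, against 9991.

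A replicate block changed no call of a member (6, 7, 6, 4, 6, 1, 6 and 5 called over the 8 comparisons), and gave 239 calls over all genes in SLUG KO against WT. WT replicate 2 limits what the WT comparisons can show, and the low counts of THY1, and of PROM1 outside MII-spheres, limit what their comparisons can show. The causes of these dependences were not tested.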
